A study of Mus musculus with 150 samples.

Results

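Dppa2 and Dppa4 are a pair of neighbouring genes on mouse chromosome 16, and their replication timing was followed here through every labelled deletion and inversion made around them. They are 2 of the 679 protein-coding genes annotated on that chromosome. Dppa4 spans chromosome 16 positions 48283735 to 48294292 and Dppa2 spans 48310274 to 48319513 (mm10), with 15981 bp between them. A gene's value was the mean of the deposited positions inside its body: 2 positions for Dppa4 (48285000 and 48290000) and 1 for Dppa2 (48315000), in a table with a position every 5 kb. Of 123 columns used, 106 held a value for Dppa4 and 107 for Dppa2, and 15 were blank at both genes.

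Both genes encode small nuclear proteins with a SAP domain that bind DNA and chromatin and act as a pair. They are expressed in the early embryo and in pluripotent stem cells and are silenced on differentiation, and in mouse embryonic stem cells they are known as activators of genes of the cleavage-stage embryo such as Dux. Replication timing is the order in which parts of a chromosome are copied during S phase. Regions that hold active genes usually replicate early, and many regions of genes silenced in a lineage move to late replication in it.

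The study measured replication timing by Repli-seq: growing cells took up BrdU for 2 h, cells in the early and in the late part of S phase were collected by sorting, and their newly made DNA was sequenced. The series holds 150 samples, of which 138 are the early and late fractions of the 69 chromosome 16 profiles used here. The score is the authors' own. Earlier replication has the higher score: in all 123 columns the median of 8 listed replication and chromatin genes lay above that of 8 large neural genes. Read depth is unknown, so the spread between clones sets the precision.

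The main comparison used 43 cas/129 mouse embryonic stem cell (mESC) clones, hybrid cells in which the 129 (svim) and castaneus (cast) alleles have separate columns. All of them carry a CRISPR edit, and each clone grew under 2i plus LIF. The tested clones fall into 23 genotypes. Single short deletions are a.del (2 clones), b.del (2), c.del (4) and 4kdel (2). Their combinations are ab.del, ac.del, bc.del, abc.del and 4k.b.del, with 2 clones each, and 4k.b.c.del, with 1. Longer deletions are 18kdel, 100kdel and 145k.30kdel (2 clones each) and 28kdel, 28.5kdel, 145kdel, 245kdel, 435kdel and 680kdel (1 each). Inversions are 680kinv (3 clones), 24.5kinv, 28.5kinv and 435kinv (1 each). The reference was 4 clones whose edits touch neither gene, named 30kdel B11, 30kdel C2, 29kdel D8 and 14kdel D11, and they are called the comparison clones. They are not unedited cells: 29kdel and 14kdel lie to the left of Dppa4, and 30kdel lies to the right of Dppa2. Smaller sets were 3 v6.5 clones (C57BL and svim alleles), named 100kdel C6, 18kdel H5 and 435kinv A4. There was also 1 neural progenitor cell (NPC) profile of the cas/129 clone 100kdel C3. A further 14 non-hybrid clones of 12 genotypes included the unedited line 46C. Non-hybrid deletions were 2kdel, 45kdel, 100kdel, 245kdel, 345kdel, 350kdel, 435kdel, 500kdel and 680kdel, and non-hybrid inversions were 45kinv and 350kinv. These non-hybrid edits were labelled homozygous, except 500kdel, which was labelled heterozygous. Whether clones of a genotype came from separate edits or cultures is not stated, so p-values measure the spread between these clones.

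**Figure D1:**
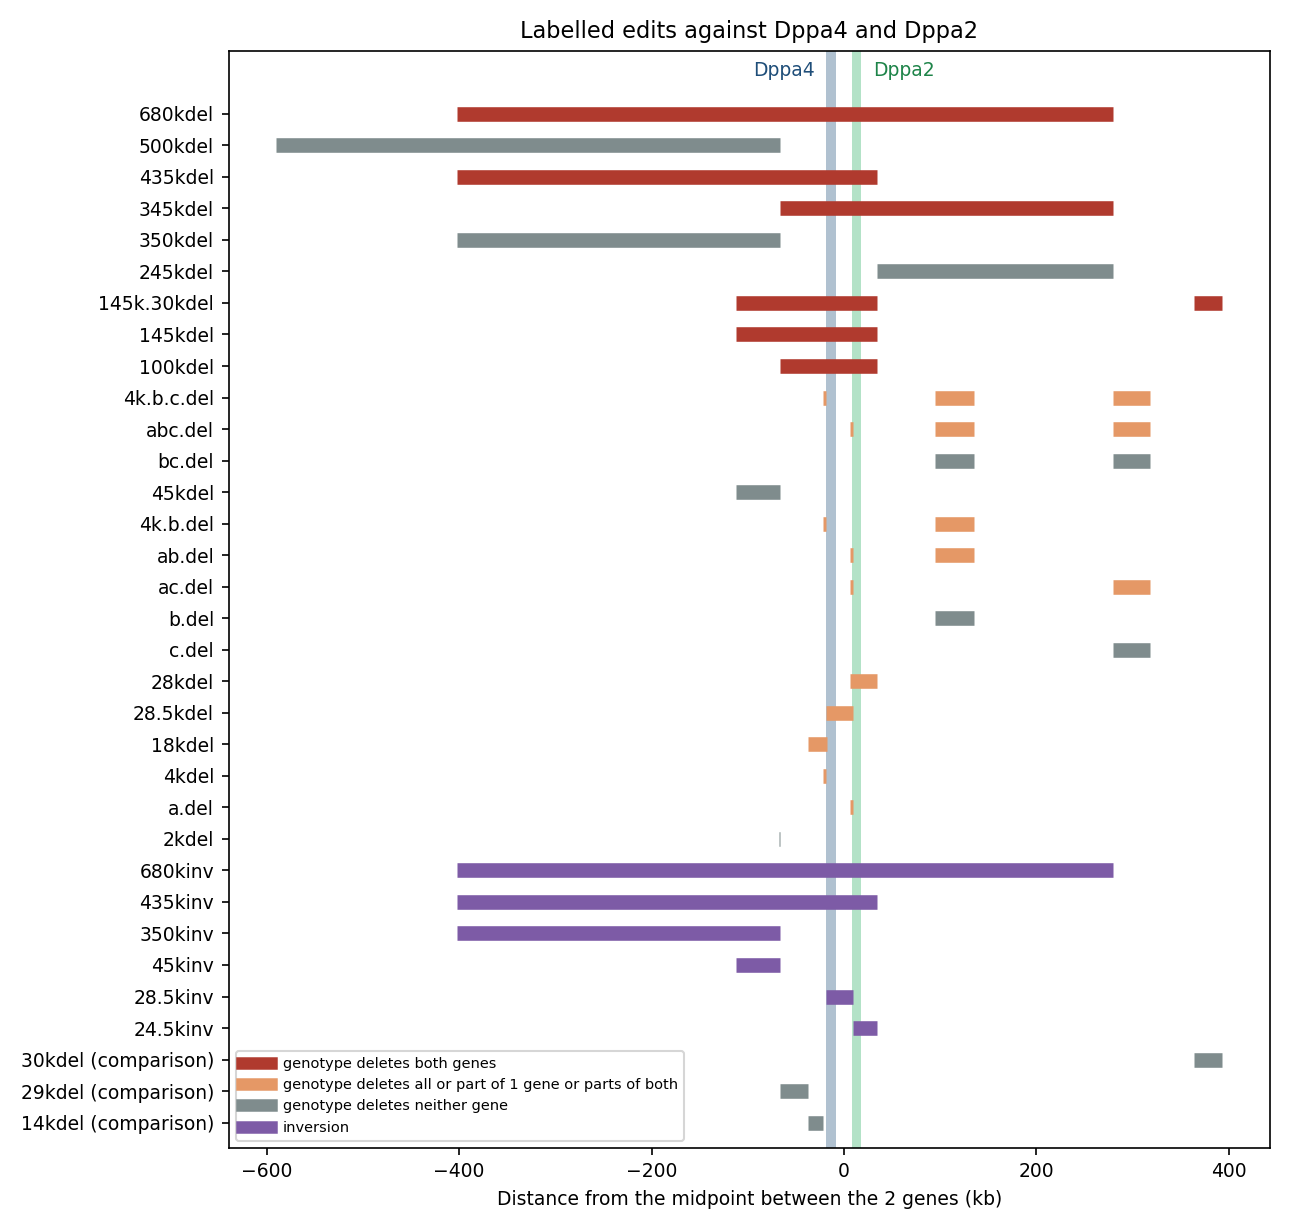
Labelled edits of each genotype (rows) by distance in kb from the midpoint between Dppa4 and Dppa2 (shaded bands). Red bars belong to genotypes that delete both genes, orange bars to those that delete all or part of 1 gene or parts of both, grey bars to those that delete neither and purple bars are inversions; the 3 comparison genotypes at the bottom touch neither gene.

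Of the short intervals a, b, c and 4k, a and 4k reach into the genes. Interval a (48308399 to 48311882) covers 1609 bp, or 17.4%, of Dppa2, at the end that faces Dppa4. The 4k interval (48280115 to 48284009) covers 275 bp, or 2.6%, of Dppa4, at its outer end. Interval b (48396806 to 48437301) and interval c (48581359 to 48620367) lie to the right of Dppa2 and touch neither gene.

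Both genes were removed by 5 cas/129 genotypes: 100kdel, 145kdel, 145k.30kdel, 435kdel and 680kdel, which make up 7 clones. In 6 of these clones the positions of both genes were blank on svim and filled on cast. In the seventh, 680kdel 79, they were blank on cast and filled on svim. The 28kdel removed all of Dppa2 and none of Dppa4. The 28.5kdel removed 97.4% of Dppa4, with both of its positions, and 17.4% of Dppa2, whose position stayed. The 18kdel reached 402 bp, or 3.8%, into Dppa4. The a.del, ab.del, ac.del and abc.del cut into Dppa2, and the 4kdel, 4k.b.del and 4k.b.c.del cut into Dppa4, without removing a position used for either gene. Inversions removed nothing: 435kinv and 680kinv turned both genes, 28.5kinv turned 97.4% of Dppa4 and 17.4% of Dppa2, and 24.5kinv turned 82.6% of Dppa2. Among the other cells, the non-hybrid 100kdel, 345kdel, 435kdel and 680kdel (5 clones, labelled homozygous) and the v6.5 clone 100kdel C6 (blank on C57BL) also lost both genes. The labels do not say which allele was edited. The blank positions show it for the larger deletions, and in the genotypes named for b or c those intervals were blank on svim. The 4k interval holds no position, and the 1 position in interval a was filled on both alleles of the a.del clones. For a and 4k the table therefore does not show it. No position inside the inverted segments was blank on either allele, so it is not shown for the inversions either.

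Both genes replicated early on both alleles of the comparison clones. Early is used here for a score above 0, since the column medians of the cas/129 clones lay between -2.17 and -0.29. On svim, Dppa4 scored 1.36 in 29kdel D8, 2.07 in 14kdel D11, 1.86 in 30kdel B11 and 2.73 in 30kdel C2, and on cast 2.68, 2.90, 2.45 and 2.85 in the same order. Dppa2 scored 1.63, 2.39, 1.98 and 2.87 on svim and 2.80, 3.13, 2.49 and 3.03 on cast. Svim lay below cast in all 4 clones for both genes: svim minus cast was -0.71 ± 0.50 for Dppa4 and -0.65 ± 0.43 for Dppa2 (SD, n = 4). The edits were read against these allele differences, not against 0.

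Over all cas/129 mESC clones the cast copy of both genes stayed early and the svim copy varied. Svim scores of Dppa4 ran between -2.93 and 2.75 with a median of 1.34, and those of Dppa2 between -2.94 and 2.94 with a median of 1.37 (36 clones each). Cast scores of Dppa4 ran between 0.82 and 3.64 with a median of 2.34, and those of Dppa2 between 1.14 and 3.62 with a median of 2.49 (42 clones each). No cast value was below 0. For each gene, the genotype mean lay below that of the comparison clones in 20 of 22 genotypes on cast. On svim it did so in 15 of 18, and all these comparisons share the same comparison clones. The 6 svim values of Dppa4 and 5 of Dppa2 below 0 all belonged to abc.del, ab.del and ac.del. Against the comparison clones, each gene was called lower in svim minus cast in 2 of 17 genotypes (tests that called 0% to 1.03% of genes lower), on svim in 3 of 18 (0% to 1.18%) and on cast in 0 of 22 (0%). At an unadjusted limma p under 0.05, the cast score of Dppa4 was lower in 4 genotypes (a.del, c.del, ac.del and 4k.b.del). That of Dppa2 was lower in 3 of them, without 4k.b.del. Of all 679 genes, 118 were lower and 18 higher at this cut-off in a.del, and 95 and 41 in 4k.b.del. The counts were 40 and 1 in c.del and 11 and 20 in ac.del. On svim Dppa4 was lower at this cut-off in 8 of 18 genotypes and Dppa2 in 10 of 18. Besides abc.del, ab.del and ac.del, these include 18kdel and 4kdel for both genes, and neither passed after adjustment. Of all 679 genes, 8 were lower and 11 higher on svim in 18kdel, and 7 and 1 in 4kdel. In svim minus cast, 3 of 17 genotypes passed this cut-off for each gene.

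**Figure D2:**
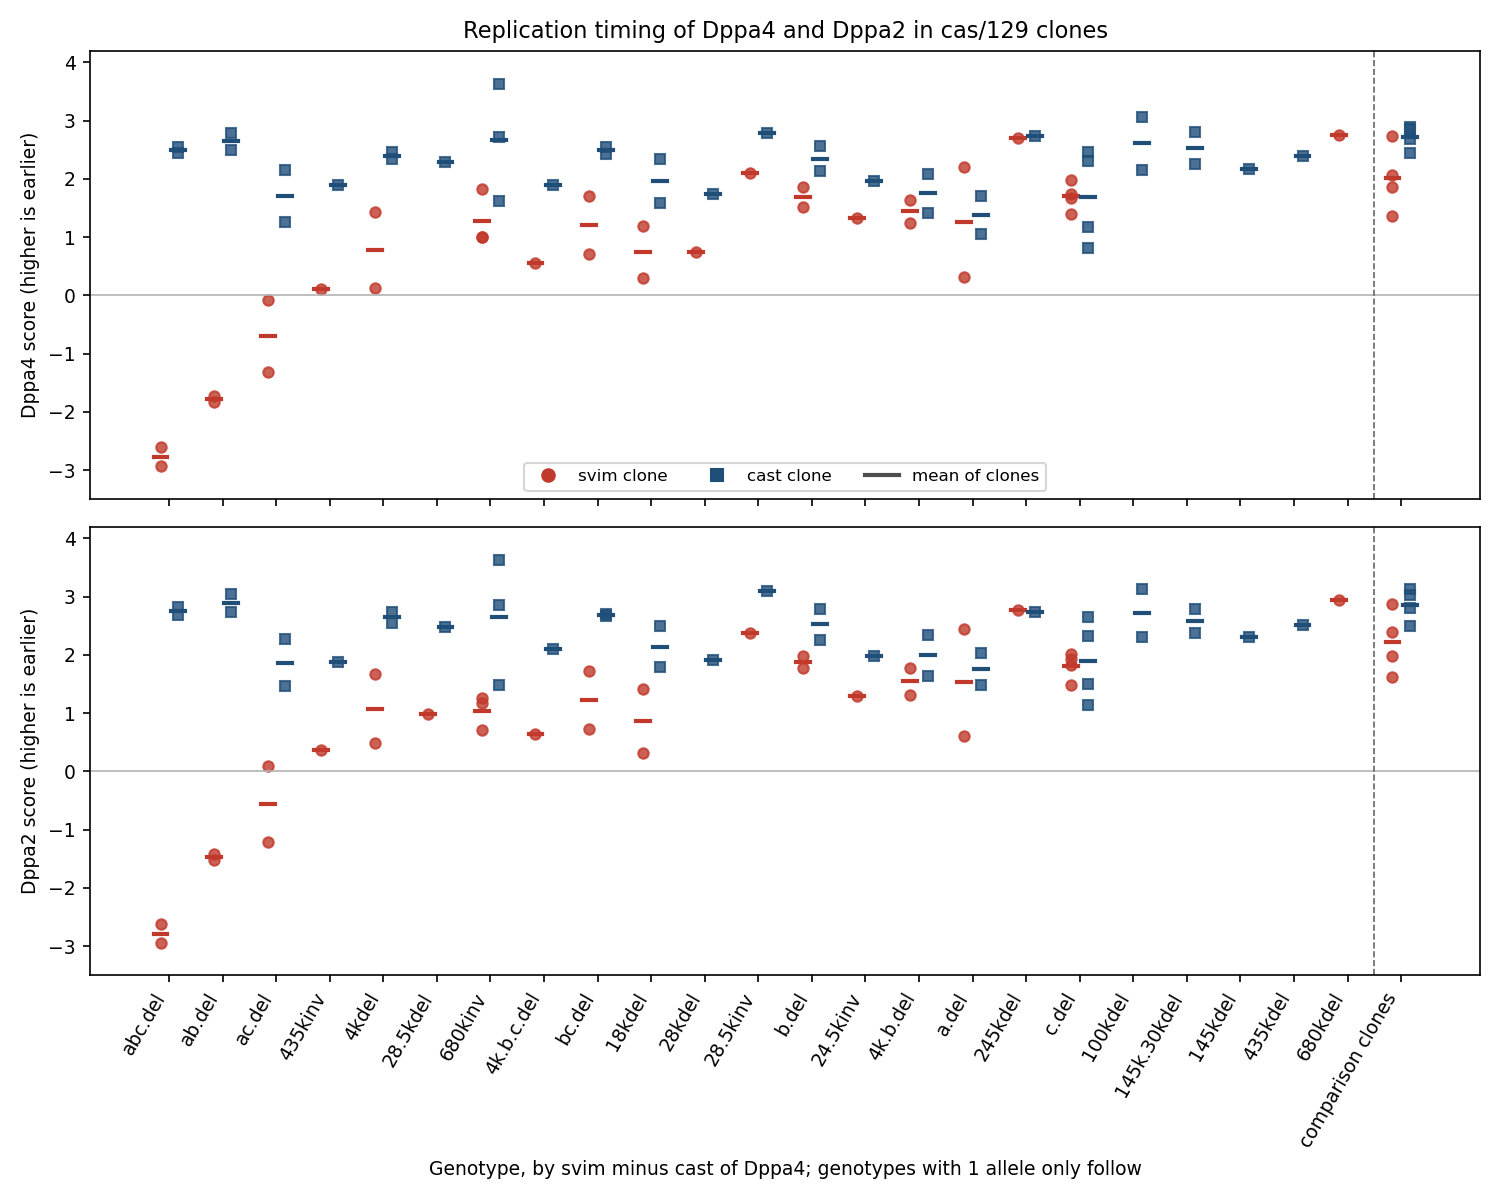
Score of Dppa4 (top) and Dppa2 (bottom) in each cas/129 clone, with svim as red circles and cast as blue squares; short bars are means of clones and the comparison clones stand at the right of the dashed line. Svim lies far under cast in abc.del and ab.del, by about the same amount in both clones of each genotype, while cast stays above 0 in every clone.

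The largest change was in abc.del, where the svim copy of both genes was late. Dppa4 scored -2.93 in clone A6 and -2.60 in clone E2 on svim, and 2.44 and 2.55 on cast. Dppa2 scored -2.94 and -2.63 on svim and 2.68 and 2.83 on cast. Both svim values of each gene lay below every comparison clone, the cast values of Dppa2 lay within the comparison range, and the cast value of Dppa4 in A6 was just under its lowest clone. Svim minus cast averaged -5.27 ± 0.15 for Dppa4 and -5.54 ± 0.12 for Dppa2 (SD, n = 2), and its difference from the comparison clones was -4.55 ± 0.53 and -4.89 ± 0.57 (SE; limma adjusted p = 1.83e-06 for both). Over all 679 genes tested, 1.03% passed that test in the lower direction. The svim score alone differed by -4.77 ± 0.47 for Dppa4 (adjusted p = 3.62e-08) and -5.00 ± 0.46 for Dppa2 (adjusted p = 2.58e-08), with 1.18% of genes lower. An exact permutation test over 2 against 4 clones cannot go below p = 0.0667, the value it gave for both genes here and in the other genotypes called on svim.

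In ab.del, which keeps interval c, the svim scores of both genes were below 0 as well, but higher than in abc.del. They lay above 47.7% to 54.7% of the positions of their columns, near the middle. In the abc.del libraries this share was 8.4% to 22%. On svim Dppa4 scored -1.72 in clone D12 and -1.83 in clone D10, and on cast 2.79 and 2.49. Dppa2 scored -1.43 and -1.51 on svim and 3.04 and 2.73 on cast. Svim was again below every comparison clone, and cast was within their range. Svim minus cast differed from the comparison clones by -3.71 ± 0.53 for Dppa4 (limma adjusted p = 0.000155) and by -3.71 ± 0.57 for Dppa2 (adjusted p = 0.000204), and 0.295% of the genes tested were called lower, which are these 2 genes. The svim score differed by -3.78 for Dppa4 and -3.68 for Dppa2 (adjusted p = 5.87e-06 for both, with 1.03% of genes lower).

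The ac.del, which keeps interval b, passed the test on svim but not on the allele difference. On svim Dppa4 scored -1.31 in clone H8 and -0.08 in clone E4, and Dppa2 scored -1.22 and 0.10. On cast Dppa4 scored 1.26 and 2.16, and Dppa2 1.46 and 2.27, all under the lowest comparison clone. The svim score differed from the comparison clones by -2.70 ± 0.47 for Dppa4 (limma adjusted p = 0.000802) and -2.78 ± 0.46 for Dppa2 (adjusted p = 0.000503), with 1.18% of genes lower. Without clone H8 neither gene passed (adjusted p = 0.247 for both). Svim minus cast differed by -1.69 ± 0.53 for Dppa4 and -1.78 ± 0.57 for Dppa2 (adjusted p = 0.309 for both), with 0% of genes called. In a limma fit of the ac.del and comparison clones alone svim minus cast passed, at adjusted p = 0.0166 for Dppa4 and 0.0108 for Dppa2. The share of all genes called in that fit is not given here.

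**Figure D3:**
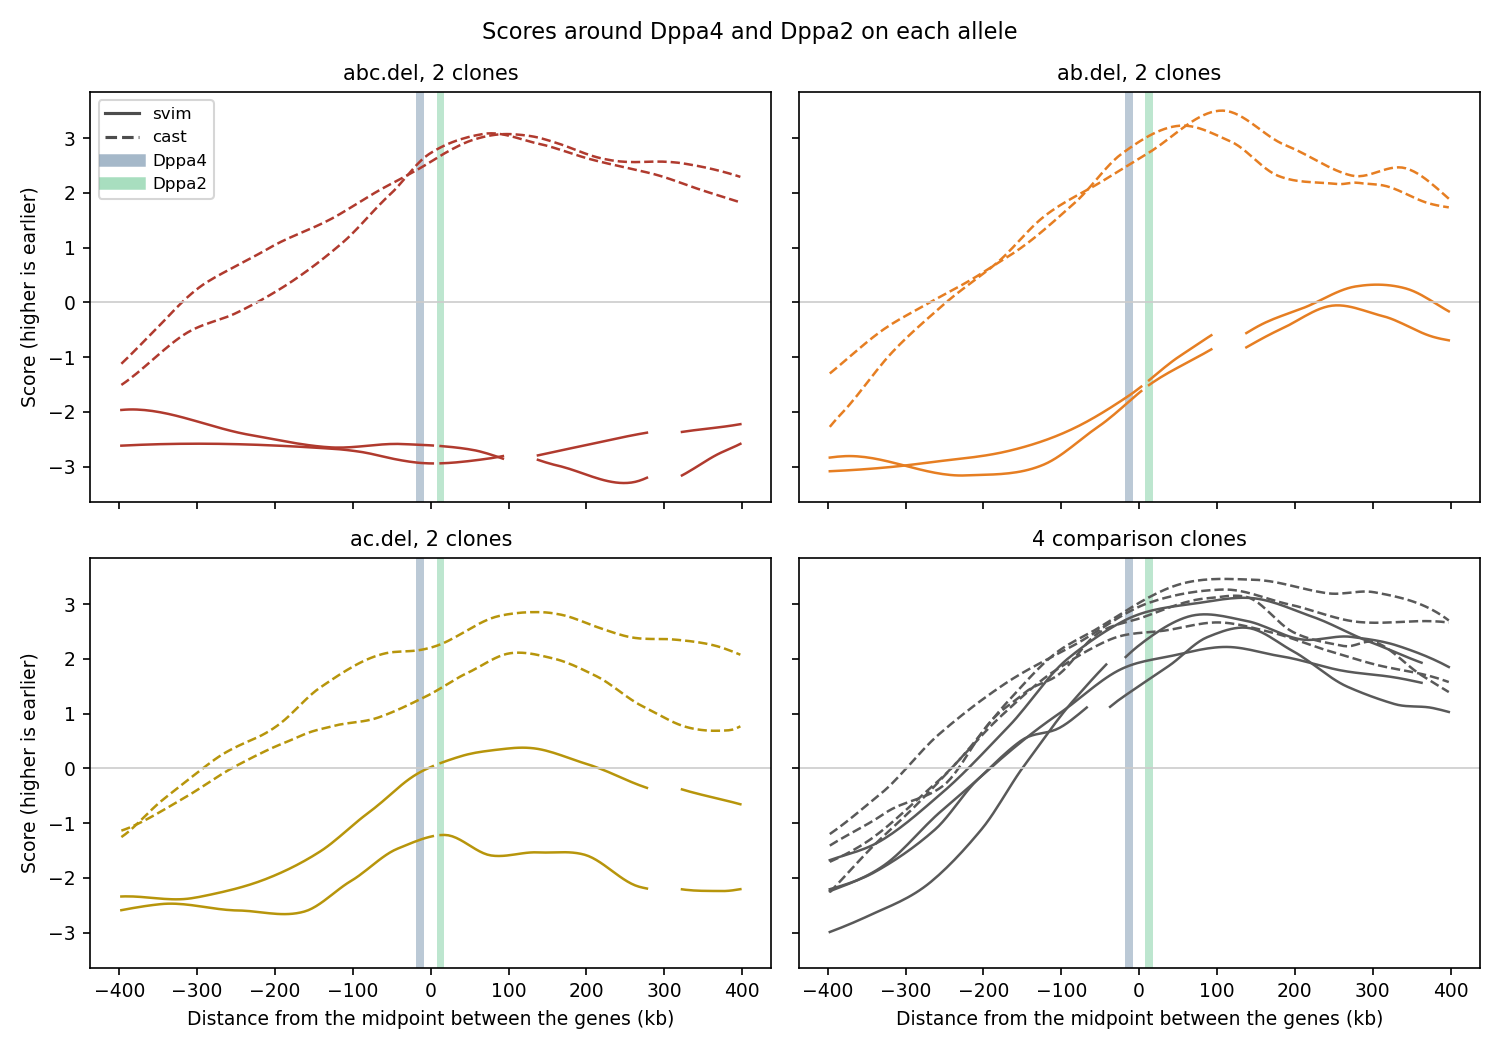
Score by distance in kb from the midpoint between the genes on svim (solid) and cast (dashed) in the abc.del, ab.del and ac.del clones and in the 4 comparison clones; breaks are deleted positions. Across Dppa4 and Dppa2 the svim lines of abc.del stay between -2.94 and -2.60, those of ab.del climb to the right, and those of ac.del differ between the clones.

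No single deletion of a, b, c or 4k moved either gene past the threshold. In a.del the clones disagreed: Dppa4 on svim scored 2.20 in clone 53 and 0.32 in clone G5, and Dppa2 scored 2.44 and 0.61. On cast Dppa4 scored 1.05 and 1.71 and Dppa2 1.48 and 2.04, so all a.del cast values lay below the comparison clones. The cast difference was -1.34 ± 0.45 for Dppa4 and -1.10 ± 0.44 for Dppa2 (limma adjusted p = 0.195 for both). In a limma fit of a.del and comparison clones alone the cast difference of Dppa4 passed (adjusted p = 0.0494), and the share of all genes called is not given here. Svim minus cast differed from the comparison clones by 0.60 for Dppa4 and 0.41 for Dppa2, and without clone 53 by -0.67 and -0.78.

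In b.del the genes stayed near the comparison level, with svim minus cast of -0.69 in clone D6 and -0.61 in clone D10 for Dppa4, and -0.81 and -0.50 for Dppa2. The 4 c.del clones, B11, A12, C9 and C6, had Dppa4 svim scores of 1.40, 1.99, 1.68 and 1.74 and cast scores of 2.45, 2.31, 1.17 and 0.82. Their Dppa2 scores were 1.48, 2.01, 1.93 and 1.84 on svim and 2.65, 2.32, 1.50 and 1.14 on cast. Here cast varied more than svim, and in C9 and C6 svim was the earlier allele. In 4kdel, Dppa4 on svim scored 0.13 in clone G4 and 1.43 in clone C6, and Dppa2 0.48 and 1.67, with cast scores between 2.33 and 2.74. Svim minus cast of 4kdel differed from the comparison clones by -0.91 ± 0.53 for Dppa4 and -0.93 ± 0.57 for Dppa2 (limma adjusted p = 0.999 for both).

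Listed pairs of genotypes were compared directly, in the same limma fit. They differ by 1 deleted segment, by a deleted in place of 4k, or, for 28.5kdel and 28.5kinv, by the kind of edit. With b deleted, the large allele difference was present where a was deleted too and not where 4k was deleted in its place. Svim minus cast of Dppa4 averaged -4.42 ± 0.13 in ab.del and -0.31 ± 0.20 in 4k.b.del, and that of Dppa2 -4.36 ± 0.15 and -0.45 ± 0.17 (SD, n = 2 each). The difference was -4.11 ± 0.62 for Dppa4 (adjusted p = 0.000577) and -3.91 ± 0.67 for Dppa2 (adjusted p = 0.00175), in a test that called 0.295% of genes lower and 0.147% higher. Without ab.del clone D12 the adjusted p for Dppa2 was 0.0505.

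With c deleted as well, svim minus cast of Dppa4 averaged -5.27 in abc.del and was -1.34 in the lone 4k.b.c.del clone, and that of Dppa2 -5.54 and -1.46. The differences of -3.93 ± 0.76 and -4.08 ± 0.82 passed (adjusted p = 0.0152 for both, 0.295% of genes lower). They missed the threshold without abc.del clone A6 (adjusted p = 0.138) and without clone E2 (adjusted p = 0.0902).

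In bc.del, which keeps interval a, the genes were early on svim in both clones: Dppa4 scored 0.71 in B3 and 1.71 in D12, and Dppa2 0.73 and 1.72. The allele difference of abc.del minus bc.del was -3.99 ± 0.62 for Dppa4 (adjusted p = 0.000937) and -4.08 ± 0.67 for Dppa2 (adjusted p = 0.000939), with 0.295% of genes lower. Without bc.del clone D12 the adjusted p was 0.0703 for both. The abc.del minus ac.del difference, for interval b, was -2.86 ± 0.62 for Dppa4 and -3.11 ± 0.67 for Dppa2 (limma adjusted p = 0.0406 for both, 0.295% of genes lower), and leaving out any 1 of these 4 clones ended both calls (adjusted p between 0.27 and 0.675). The abc.del minus ab.del difference, for interval c, was -0.84 ± 0.62 and -1.18 ± 0.67 (adjusted p = 0.998 for both). The other listed pairs did not pass: a.del minus 4kdel (1.50 ± 0.62 for Dppa4, 1.34 ± 0.67 for Dppa2), 18kdel minus 14kdel (-0.38 ± 0.76 and -0.54 ± 0.82) and 28.5kdel minus 28.5kinv (-0.78 ± 0.94, Dppa2 only), with a lowest adjusted p of 0.898.

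Ranked by svim minus cast, abc.del, ab.del and ac.del came first for both genes. The inversions, a.del and 4kdel were ranked in the same way, although the table does not show which of their alleles was edited. The order for Dppa4 went on with 435kinv (-1.79), 4kdel (-1.62), 680kinv (-1.38), 4k.b.c.del (-1.34), bc.del (-1.28), 18kdel (-1.21), 28kdel (-0.9985), the comparison clones (-0.71), 28.5kinv (-0.68), b.del (-0.65), 24.5kinv (-0.64), 4k.b.del (-0.31), a.del (-0.12), 245kdel (-0.05) and c.del (0.01). For Dppa2 it went on with 680kinv (-1.61), 4kdel (-1.57), 28.5kdel (-1.50), 435kinv (-1.50), 4k.b.c.del (-1.46), bc.del (-1.46), 18kdel (-1.28), 28.5kinv (-0.71), 24.5kinv (-0.68), b.del (-0.65), the comparison clones (-0.65), 4k.b.del (-0.45), a.del (-0.23), c.del (-0.09) and 245kdel (0.03). The pooled SD between clones of a group was 0.72 for Dppa4 and 0.77 for Dppa2. Of the 17 gaps between neighbours, 2 were larger than that SD for Dppa4 and 3 for Dppa2, and all of them lay among the first 4 places. From the fourth place down, no gap between neighbours was larger than the pooled SD, and places held by 1 clone have no spread of their own. Clone ranges of some neighbours there did not overlap, such as 18kdel and the genotype after it (gap 0.21 for Dppa4 and 0.56 for Dppa2). Outside abc.del, ab.del and ac.del, differences from the comparison clones ran between -1.07 and 0.72 for Dppa4 and between -0.96 and 0.68 for Dppa2 (14 genotypes each, lowest limma adjusted p = 0.671 and 0.541). In those genotypes the test called 0% of genes, except for 0.589% in c.del and 0.884% in 4k.b.c.del, with neither gene among them. On svim it called 0.442% in c.del, 0.589% in 4k.b.c.del and 0.147% in a.del and bc.del, again without Dppa4 or Dppa2.

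Where 1 of the genes was removed, the other kept a score above 0 on both alleles. In 28kdel, which lacks Dppa2, Dppa4 scored 0.75 on svim and 1.74 on cast. In 28.5kdel, which lacks nearly all of Dppa4, Dppa2 scored 0.99 on svim and 2.48 on cast. Both svim values lay below all 4 comparison clones, but neither passed the test over all genes (svim difference -1.26 ± 0.60, adjusted p = 0.944, and -1.23 ± 0.59, adjusted p = 0.999; 0% of genes called).

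Where both genes were lost from svim, the cast copy stayed early. Cast Dppa4 scored 2.15 in 100kdel B6, 3.07 in 100kdel C3, 2.80 in 145k.30kdel A3, 2.25 in 145k.30kdel E12, 2.16 in 145kdel G5 and 2.40 in 435kdel B8. Dppa2 scored 2.31, 3.12, 2.79, 2.37, 2.30 and 2.51 in the same clones. Both ranges overlapped those of the comparison clones. Dppa4 averaged 2.47 ± 0.38 in these 6 clones and 2.72 ± 0.20 in the 4 comparison clones (SD; exact two-sided permutation p = 0.276), and Dppa2 2.57 ± 0.33 and 2.86 ± 0.28 (p = 0.186; the smallest possible p is 0.00476). In 680kdel 79, whose cast copy was lost, svim scored 2.75 for Dppa4 and 2.94 for Dppa2, above all 4 comparison clones.

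On the allele that lost the genes, the scores of the positions beside the gap differed with the deletion. The nearest remaining svim positions to the left and right of the gap scored between 0.33 and 1.91 in those 6 clones. At the right of the gap, 45.7 kb from Dppa4, 5 of the 6 clones lay below all comparison clones, whose mean there was 2.37, and 100kdel C3 was the exception at 1.91. In 435kdel B8 the left flank, 383.7 kb from Dppa4, scored 0.88, against a comparison mean of -2.30 at that position. In 680kdel 79, on cast, the flanks scored -0.66 and -0.65, and the comparison mean at the right one was 2.54. Among homozygous non-hybrid deletions the left and right flanks scored 1.37 and 1.43 in 100kdel and 0.50 and 0.51 in 435kdel, but -2.33 and -2.32 in 345kdel, -1.47 and -1.45 in 680kdel 13 and -1.85 and -1.81 in 680kdel 16. Among these deletions of both genes, flanks below 0 in mESC were found where the right flank position lies 290.7 kb from Dppa4. In 100kdel C6 (C57BL) the flanks scored 0.72 and 0.81, and in 100kdel C3 NPC (svim) -4.48 and -4.47.

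In the cas/129 inversions the genes stayed early. Which allele carries each inversion is not shown, so the 680kinv mean may pool clones inverted on different alleles. Dppa4 on svim scored 1.83 in 680kinv B10, 1.00 in 680kinv C5, 1.00 in 680kinv 80 and 0.12 in 435kinv C5, and on cast 3.64, 2.73, 1.62 and 1.90. Dppa2 scored 1.17, 0.71, 1.26 and 0.38 on svim and 3.62, 2.85, 1.48 and 1.87 on cast. All 4 svim values of Dppa2 lay under the lowest comparison clone, and none of the inversions was called (680kinv svim difference of Dppa2 -1.17 ± 0.40, adjusted p = 0.757; 435kinv -1.84 ± 0.59, adjusted p = 0.83). In the short inversions svim and cast scores of Dppa4 were 2.10 and 2.79 in 28.5kinv and 1.32 and 1.97 in 24.5kinv, and those of Dppa2 2.37 and 3.09, and 1.30 and 1.98. In the 24.5kinv clone genes elsewhere moved both ways: at an unadjusted limma p under 0.05, 182 genes were lower and 63 higher on svim, and 51 lower and 90 higher on cast. In the table as deposited, Dppa4 and Dppa2 of this clone differed by -0.68 and -0.92 on svim and were not called. With columns rescaled outside the edited region the differences were -1.87 and -2.11 on svim and -1.96 and -2.09 on cast. Both genes were then called. The share of all genes called with rescaled columns is not given here, so these calls do not set the pair apart from other genes.

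The 2 genes moved together. Svim minus cast of Dppa4 and Dppa2 correlated at r = 0.99 over 34 clones, a description only, since the neighbouring positions of a column correlate at 0.9999 and the score is smooth over this distance. On svim, Dppa4 lay below Dppa2 by between 0.11 and 0.32 in the 4 comparison clones. In abc.del Dppa4 minus Dppa2 was 0.01 and 0.02, and it was as close to 0 in bc.del (-0.0163 and -0.0123) and 24.5kinv (0.0242). In 680kinv the svim step was turned in B10 (0.66) and C5 (0.29) but not in 80 (-0.26). On cast it was turned in 80 (0.15), close to 0 in B10 (0.0142) and not turned in C5 (-0.13). The comparison clones ran between -0.23 and -0.0433 on cast. None of 24 exact permutation tests of this step passed after Benjamini-Hochberg adjustment (lowest adjusted p = 0.436).

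The gene most like the pair was Morc1, a germ cell gene that lies to their right and overlaps intervals b and c. Its svim minus cast correlated with the mean of both genes at r = 0.81 over 34 clones (Spearman 0.80). Next came Trat1 (0.55), Retnlb (0.53), Retnla (0.52) and Retnlg (0.50), which start between 447 and 588.9 kb from Dppa4. Beyond 2 Mb the highest values were 0.42 for Tmprss7 and 0.41 for Dcbld2 and BC016579, and the median over 677 genes was 0.02. The clones share the cas/129 background and the edits, and all correlations are descriptions.

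Of the 3 genes between and beside these intervals (Dppa4, Dppa2 and Morc1), 3 were lower on svim in each of abc.del, ab.del and ac.del, where 1.18%, 1.03% and 1.18% of all genes were. Morc1 differed by -5.14 ± 0.52 in abc.del (limma adjusted p = 3.62e-08). Its difference was -2.37 ± 0.50 with a and b deleted (adjusted p = 0.0104) and -3.18 ± 0.52 with a and c deleted (adjusted p = 0.000503). Of 7 listed genes further right (Trat1, Retnlb, Retnla, Retnlg, Dzip3, Cip2a and Myh15), abc.del had 5 lower on svim, ab.del 4 and ac.del 5, with median differences of -2.10, -1.67 and -1.96. None of the 8 replication and chromatin genes and none of the 8 neural genes elsewhere on the chromosome passed in these 3 genotypes. The median difference over all 679 genes was -0.04, 0.01 and -0.06.

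The genes were also early in all non-hybrid mESC clones that keep them. The labels give serum medium for 46C, so background and culture cannot be told apart between these cells and the hybrids, and no test spans both. Edited clones scored between 2.00 and 3.02 for Dppa4 and between 2.17 and 3.15 for Dppa2, against 2.36 and 2.28 in unedited 46C. The lowest Dppa4 value was in 2kdel and the highest in 245kdel 28, whose homozygous deletion takes the segment between the 28kdel's right end and interval c. In 245kdel clones 25 and 28 Dppa4 scored 2.78 and 3.02 and Dppa2 2.49 and 3.15, the highest of the non-hybrid clones for Dppa4. The 245kdel minus 46C difference was 0.55 ± 0.34 for Dppa4 and 0.54 ± 0.38 for Dppa2 (limma adjusted p = 0.571 and 0.638, with 1 residual degree of freedom and 0.147% of genes called higher). None of the 7 non-hybrid genotypes with a value was called at either gene, but 6 of them are 1 clone, set against the 1 profile of 46C, so this says little about the size of any difference. In 500kdel 0.59% of genes were called lower.

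In v6.5 clones, each with 1 profile and no test, the genes could also differ between alleles. In 18kdel H5 Dppa4 scored 0.96 on C57BL, whose deleted positions were blank, and 2.24 on svim, and Dppa2 scored 1.24 and 2.53. In 435kinv A4 Dppa4 scored 2.22 on C57BL and -0.13 on svim, and Dppa2 2.83 and 0.88. In 100kdel C6 the remaining svim copies scored 2.11 and 2.36.

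The 1 NPC profile showed both genes late. In 100kdel C3 NPC, where only the cast copy of the genes remains, Dppa4 scored -3.61 and Dppa2 -3.58, against 3.07 and 3.12 in the mESC of the same clone (mean of 2 libraries). The NPC values lay above 25.5% and 25.9% of that column's positions. Those of the mESC libraries lay above 85.2% and 94.7% for Dppa4, and above 85% and 96.8% for Dppa2. There is 1 NPC profile, so this difference has no replicate check.

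**Figure D4:**
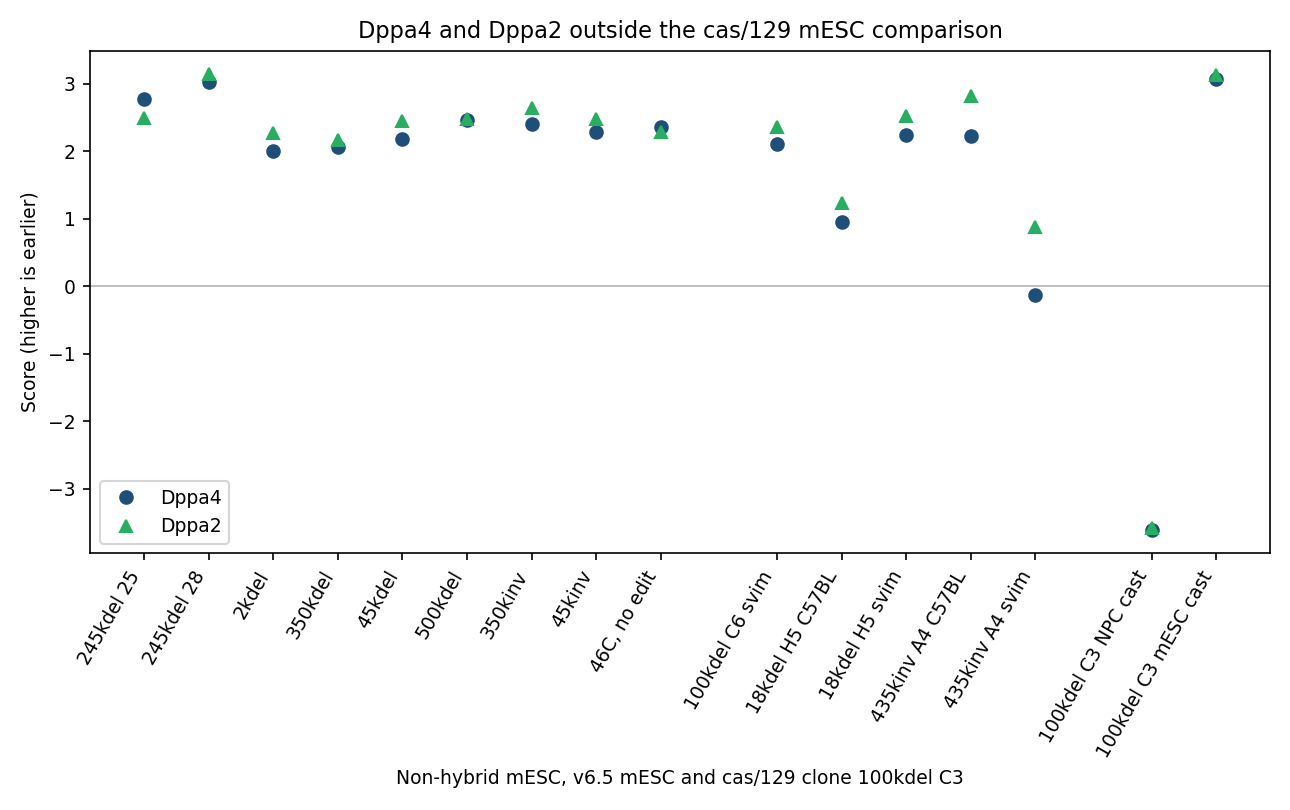
Scores of Dppa4 (circles) and Dppa2 (triangles) in edited and unedited (46C) non-hybrid mESC, in v6.5 mESC by allele, and on the cast allele of clone 100kdel C3 as NPC and as mESC; each point is 1 clone. Non-hybrid values lie between 2.00 and 3.15, 1 allele is lower in 18kdel H5 and 435kinv A4, and the NPC values are -3.61 and -3.58.

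Repeat libraries of 1 clone give the measurement error of these values. Between repeat libraries the SD was 0.24 for Dppa4 and 0.25 for Dppa2 on svim, and 0.40 and 0.45 on cast. The largest gap between repeats was 1.10, for Dppa2 on cast, in 100kdel C3.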

How the data were processed

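The deposited chromosome 16 table holds a replication timing score per 5 kb position and column, made by the authors from early and late fractions. The build is mm10 and the tools named are Bowtie2, SAMtools and bedtools, per the submitters' processing notes. Tool versions, the formula, log base, smoothing and filters were not given in the sources used here. All 123 columns used have an interquartile range of 4.60, so they were scaled before deposit, and a difference in score is not a fold change. Depth is unknown. A further 6 columns, named F121.9 with nesc or NPC, matched no listed sample, so what they hold could not be taken from the labels and they were not used, and chromosome 8 was not analysed here.

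Genes were the protein-coding genes of GRCm38.p6 RefSeq. Repeat libraries of a clone were averaged. Positions inside a labelled deletion were left out, unless that allele held all of them while the other was blank. Gene means of all 43 cas/129 mESC clones were fitted in limma 3.58.1 (R 4.3.3) with 1 group per genotype and the 4 comparison clones as another, so lone clones were assumed to vary like the others. Two-sided p-values were adjusted (Benjamini-Hochberg) over all genes of a comparison (threshold 0.05) and none across genotypes. All comparisons of cas/129 genotypes share the comparison clones. Exact permutation tests over clones were added. The fit was tested on simulated data. The labels give no batch. The members, gene lists, comparison clones, tests and named genes (highest 5 by Pearson correlation, at least 30 clones, and 3 beyond 2 Mb) were chosen with earlier results of these data known. Alternatives changed the comparison clones, the fit, the scaling, the positions, the libraries and the clones.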

Additional observations from a re-analysis of the deposited data

How the results depend on the processing

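Read depth and batch are unknown, no listed sample is an unedited cas/129 line (the F121.9 columns were not used), and many genotypes have 1 clone. No paired analysis was possible across clones because the replicate numbers in the sample names mark only repeat libraries of 1 clone. These libraries were averaged, and the names of the comparison clones carry no such number. Within each clone, svim minus cast does pair both alleles. The abc.del and ab.del calls against the comparison clones held under every alternative run (highest adjusted p = 0.0196). Of 1475 alternative values, 1399 kept their direction and side of the threshold; the cause of the other changes was not tested.

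With 5 comparison clones, 24.5kinv included, cast differences changed sign for Dppa4 in ab.del (0.0746) and Dppa2 in abc.del (0.0687). With 30kdel clones alone as comparison, svim minus cast changed sign for Dppa4 in 24.5kinv (-0.29), 28.5kinv (-0.33) and b.del (-0.30) and for Dppa2 in 4k.b.del (-0.11), as did svim in 28.5kinv (-0.20 and -0.0493 for Dppa4 and Dppa2). Quantile normalization turned Dppa4 in 24.5kinv (-0.57) and b.del (-0.0836) and Dppa2 in 28.5kinv (0.072), and ended the abc.del minus ac.del calls (-2.88 and -3.13, adjusted p = 0.144 by limma). Rescaling turned Dppa2 in 28.5kinv (0.11), Dppa4 in b.del (-0.0293) and cast Dppa4 in ab.del (0.11), ended abc.del minus ac.del (-2.77 and -3.01), called 24.5kinv on svim (-1.87 and -2.11) and cast (-1.96 and -2.09), and so left 1 genotype called on cast for each gene. Positions within 25 kb turned Dppa2 in 24.5kinv (0.0053) and ended abc.del minus ac.del (-2.79 and -3.07). Leaving out 10 kb beside deletions turned Dppa4 in 28.5kinv (-0.0124), ended abc.del minus ac.del for Dppa4 (-2.86), and left no svim value for Dppa2 where interval a or the 28.5k segment was deleted and for Dppa4 where the 4k or 18k segment was. The first library of each clone turned 28.5kinv (Dppa2 svim minus cast 0.0509; svim -0.18 and -0.23). Fits of a genotype and the comparison clones alone called ac.del svim minus cast (-1.69 and -1.78) and a.del cast Dppa4 (-1.34), the 1 cast call for Dppa4. With all positions as features, abc.del minus 4k.b.c.del (-3.95 and -4.08) and abc.del minus ac.del (-2.90 and -3.11) missed the threshold.

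Leaving out 1 clone at a time gave these ranges for Dppa4 and then Dppa2. Svim minus cast ran from -0.13 to 0.27 and -0.21 to 0.13 in 24.5kinv, -0.17 to 0.23 and -0.25 to 0.0936 in 28.5kinv, -0.67 to 1.86 and -0.78 to 1.61 in a.del, and -0.14 to 0.26 and -0.18 to 0.16 in b.del. Svim ran from -0.12 to 0.34 and -0.0366 to 0.38 in 28.5kinv, -1.68 to 0.19 and -1.60 to 0.23 in a.del, and -3.32 to -2.08 and -3.43 to -2.12 in ac.del. Cast in ab.del ran from -0.22 to 0.0718 and -0.13 to 0.18. The pairs ran from -4.04 to -3.82 and -4.16 to -4.00 for abc.del minus 4k.b.c.del, -3.03 to -2.70 and -3.37 to -2.86 for abc.del minus ac.del, -4.54 to -3.43 and -4.56 to -3.60 for abc.del minus bc.del, and -4.03 to -3.79 (Dppa2) for ab.del minus 4k.b.del. The lone 4k.b.c.del clone could not be left out. Cast differences of the other 17 genotypes changed sign in 25 of 517 alternatives, and none passed (lowest adjusted p = 0.14).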
